A study of Caenorhabditis elegans with 22 samples.

Results

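The comparison set young adult Caenorhabditis elegans carrying isp-1(qm150) together with ced-4(n1162) against untreated wild type worms, across all genes of an Affymetrix array. Its arrays were chosen by their titles: 3 arrays of the isp-1 ced-4 mutant and 4 arrays of wild type, 7 of the 22 arrays in the series. The single mutants isp-1(qm150) and ced-4(n1162), with 3 arrays each, serve below to show where the combined mutant differs from each of its parents. Wild type worms treated with 0.1 mM paraquat, a compound that generates superoxide, are set beside it for a few gene lists (3 arrays). All of these groups were hermaphrodites in the Bristol N2 background from an egg lay of 4 hours, picked by hand as young adults, and whole-worm total RNA was labelled by in vitro transcription primed at the 3' end. The worms were staged as young adults and the labels give no age in hours, which bears on the comparison because isp-1 mutants are known to develop slowly. Titles call the arrays biological replicates without saying whether worms were grown in separate cultures. The p-values therefore measure no more than the spread among arrays within groups, taken over all 22 arrays. Some of that spread can be technical.

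isp-1 encodes the Rieske iron-sulfur protein of respiratory complex III, and the qm150 allele is a missense change known to lower respiration and to lengthen life. ced-4 encodes the homologue of Apaf-1, which activates the caspase CED-3 after EGL-1 releases it from CED-9 at the mitochondria, and n1162 is a nonsense allele that prevents programmed cell death. The hermaphrodite gonad makes sperm first and then switches to oocytes, so transcripts of both can be read in the RNA of a whole young adult. Mitochondrial damage in worms is known to raise chaperones and proteases of the mitochondrial unfolded protein response through ATFS-1, and superoxide dismutases, detoxification enzymes and hypoxia-response genes through other factors.

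Values are log2 expression values, means are given with the SD over arrays, and differences are isp-1 ced-4 minus the other group, with the standard error (SE) of limma. A gene was called at an adjusted p under 0.05 over all probe sets tested (limma, Benjamini-Hochberg), and "rose" and "fell" are used of called genes. Of the tissue markers, all 8 intestinal, all 6 germline and all 6 oocyte markers lay at or above the median of the table in isp-1 ced-4 and in wild type, and none of 6 male markers reached it in either. Of 5 pharynx markers 5 reached it in isp-1 ced-4 and 4 in wild type, and of 6 hypodermis markers 5 and 4. Of the 3 somatic gonad markers on the array 1 reached it in each group. On the isp-1 ced-4 arrays replicates 2 and 3 correlated at 0.991 over the probe sets tested, whereas replicate 1 correlated with them at 0.974 and 0.963 and with the wild type arrays at 0.916 to 0.951, against 0.836 to 0.902 for replicates 2 and 3. Wild type arrays correlated with each other at 0.945 to 0.984, and wild type replicate 1 was low in pharyngeal muscle transcripts. Replicate 1 of isp-1 ced-4 was the highest of the 3 mutant arrays in 1594 of the 2167 genes that fell (73.6%) and the lowest in 2122 of the 2831 that rose (75.0%), so over most called genes it lay nearest to wild type.

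The mutated genes were read first. ced-4 stood at 5.53, 5.74 and 5.83 on the isp-1 ced-4 arrays, against 7.71, 7.93, 7.51 and 7.32 on the wild type arrays. The groups did not overlap, and the transcript fell by 1.92 (SE 0.16, adjusted p = 2.11e-07). It did not differ past the threshold from the ced-4 single mutant (mean 5.72, difference -0.02, adjusted p = 0.915 by limma). isp-1, read by a probe set that may bind several transcripts, stood at 13.08, 13.05 and 13.05 in isp-1 ced-4, against a mean of 13.06 ± 0.06 in wild type (SD, n = 4, difference 0.00, adjusted p = 0.99 by limma). A missense allele need not change the transcript, so the isp-1 level does not check the label.

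Over all 9647 genes tested, 2831 were higher (29.3%) and 2167 lower (22.5%) in isp-1 ced-4 than in wild type, 51.8% in all. At least 2-fold changes ran mostly downward, with 857 genes higher (8.88%) and 1362 lower (14.1%). On the level of probe sets 6365 of 12639 were called (50.4%), 3693 higher (29.2%) and 2672 lower (21.1%), 2788 of them by at least 2-fold (22.1%), and 7099 had an unadjusted p under 0.05. The direction split depended on the scaling between arrays: higher probe sets were 58.0% of the calls on the deposited values, with a median difference of 0.121, and 44.9% after cyclic loess, with a median of -0.015. Small rises of whole gene groups are therefore read against the median of all genes, 0.11, and against the loess counts, for which 20.8% of all genes were higher and 26.7% lower. Without isp-1 ced-4 replicate 1 these shares were 28.7% and 21.3%, and in a fit of the 2 compared groups alone 19.2% and 16.7%. Against isp-1 the combined mutant differed in 3232 genes (33.5%), and against ced-4 in 5027 genes (52.1%), 2844 higher (29.5%) and 2183 lower (22.6%). Higher probe sets were 59.9% of the calls against ced-4, with a median of 0.171, and 45.9% after loess, with a median of 0.009. For scale, the isp-1 single mutant differed from the same wild type arrays in 2244 genes (23.3%) and ced-4 in 1436 (14.9%), 7.02% of all genes higher and 7.87% lower.

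Sperm transcripts had the lowest medians of the 51 gene lists. Of 30 tested genes of sperm formation and function 24 fell and 1 rose, with a median difference of -2.81. All 38 tested genes of the major sperm protein family and its small sperm-specific relatives fell, with a median of -2.23. The mean level of the sperm function list was 5.59, 4.27 and 4.11 on the isp-1 ced-4 arrays, against 6.66, 7.03, 7.60 and 7.63 on the wild type arrays. Major sperm proteins, which form the cytoskeleton of the crawling sperm, averaged 11.54, 9.56 and 8.85 in isp-1 ced-4, against 12.22 to 12.52 in wild type. Neither list overlapped between the groups, and replicate 1 of isp-1 ced-4 lay between the other mutant arrays and wild type in both.

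**Figure D1:**
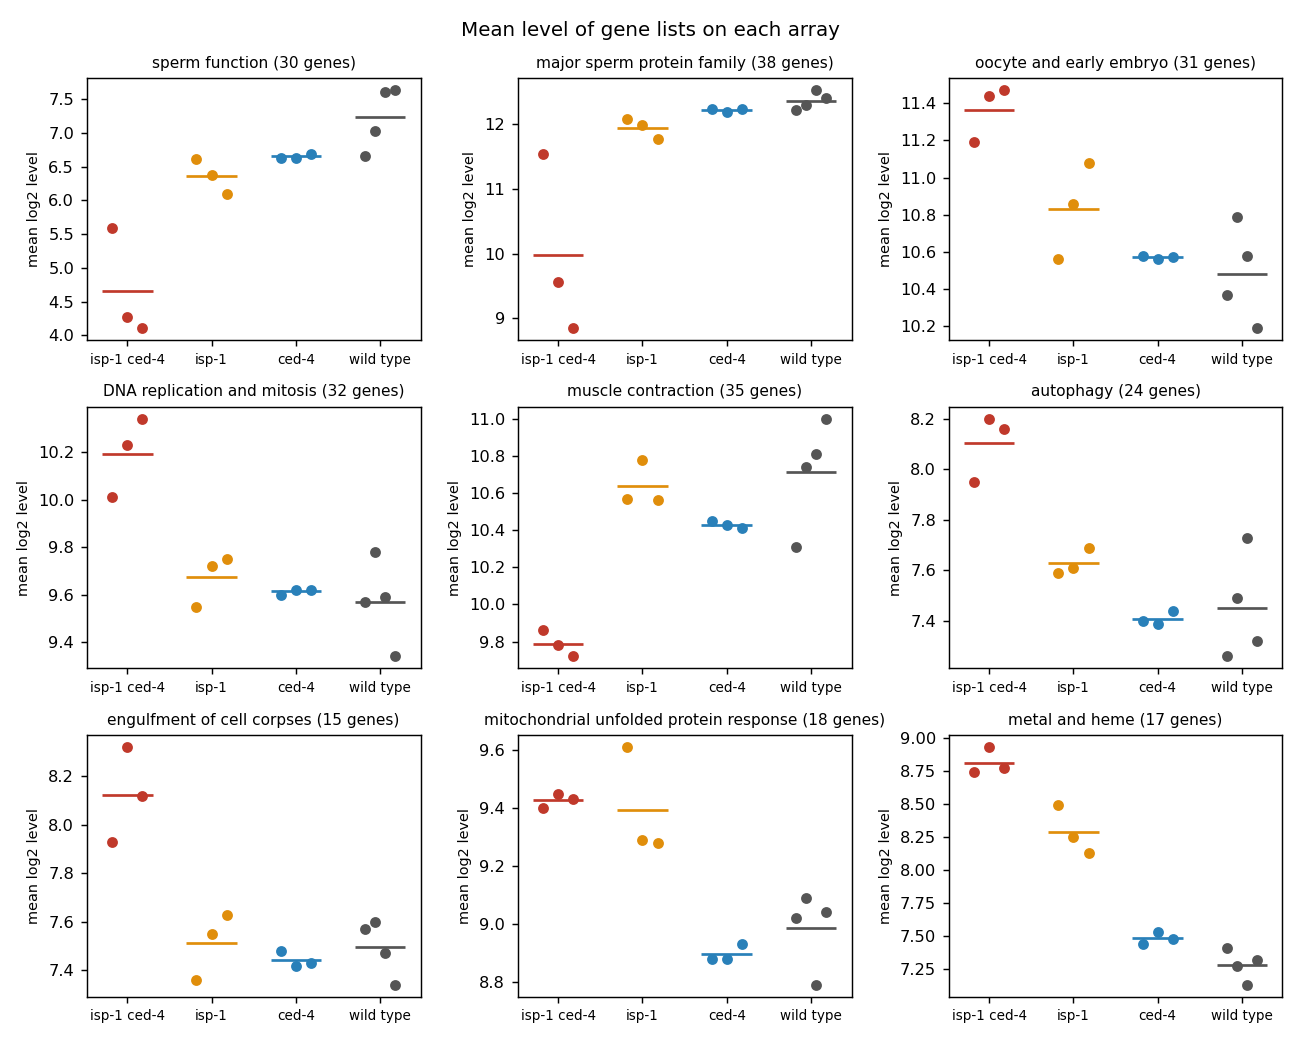
Mean log2 level of the tested members of 9 gene lists on each array of isp-1 ced-4, isp-1, ced-4 and wild type. Points are arrays and bars are group means. Sperm function, at 4.11 to 5.59 in isp-1 ced-4 and 6.66 to 7.63 in wild type, is lowest in isp-1 ced-4, and the oocyte, replication, autophagy, engulfment and metal lists are the highest there.

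spe-27, needed for spermatids to become motile sperm, had the smallest p of the sperm function list. It stood at 3.69, 2.78 and 2.23 in isp-1 ced-4, against 6.39, 6.05, 6.69 and 6.73 in wild type, a fall of 3.56 (SE 0.26, adjusted p = 4.03e-08). spe-4, the presenilin of the sperm-specific membranous organelles, stood at 4.00, 3.12 and 3.03 in isp-1 ced-4, against 5.95, 6.55, 7.48 and 7.94 in wild type, and fell by 3.60 (SE 0.38, adjusted p = 1.25e-06). sss-2, of the small sperm-specific proteins, stood at 8.60, 4.58 and 4.39 in isp-1 ced-4, against 10.32, 10.66, 11.03 and 11.08 in wild type, a fall of 4.92 (SE 0.63, adjusted p = 6.92e-06). In all of these the highest mutant array was replicate 1 and still lay below the lowest wild type array. The histone H3 variant his-70, which sperm carry, fell by 4.29, the kelch protein gene spe-26 by 3.98, and gskl-2, a kinase of the GSK3 family used in spermatogenesis, by 4.74.

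The fall went past both parents. Against isp-1, 24 of the 30 sperm function genes and 37 of the 38 major sperm protein genes were lower in isp-1 ced-4, and against ced-4 23 and 37 were lower. Differences from wild type in the parents were smaller: in isp-1 15 of 30 sperm function genes fell with a median of -0.98 and 1 of 38 major sperm protein genes fell, and in ced-4 6 and 0 fell. Without isp-1 ced-4 replicate 1 the median against wild type was -3.21 for sperm function and -3.03 for the major sperm proteins, with 24 and 38 lower. In RNA of whole worms, fewer sperm and less RNA per sperm cannot be told apart. Of the 38 major sperm protein genes, 32 were read by probe sets that may bind several transcripts.

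Oocyte and dividing-cell transcripts moved the other way. Of 31 genes of oocytes and the early embryo 29 rose and 0 fell, with a median of 0.68, and 24 rose and 0 fell after cyclic loess. The list averaged 11.19, 11.44 and 11.47 in isp-1 ced-4, against 10.37, 10.79, 10.58 and 10.19 in wild type, with no overlap. mex-1, a zinc finger protein inherited by the early blastomeres, stood at 11.37, 11.76 and 11.73 in isp-1 ced-4, against 10.35, 10.61, 10.28 and 10.24 in wild type (difference 1.25, SE 0.16, adjusted p = 7.52e-06). cav-1, a caveolin of oocyte cortical granules read by a probe set that may bind several transcripts, changed most, at 8.94, 9.77 and 9.48 in isp-1 ced-4, against 4.87, 5.10, 4.56 and 3.55 in wild type (difference 4.88, SE 0.51, adjusted p = 1.07e-06). The yolk receptor rme-2 rose by 0.76, and the translational regulators pos-1 and mex-5 by 0.98 and 0.81. In all 29 called genes isp-1 ced-4 replicate 1 was the lowest mutant array, as it was the highest in all 38 major sperm protein genes.

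Among 32 replication and mitosis genes 24 rose and 0 fell (median 0.53), and after loess 19 rose and 1 fell. tyms-1, the thymidylate synthase, stood at 9.97, 10.33 and 10.34 in isp-1 ced-4, against 7.38, 8.03, 8.10 and 6.82 in wild type (difference 2.63, SE 0.23, adjusted p = 2.68e-07). It had also risen in isp-1 (2.08, adjusted p = 1.38e-05), and isp-1 ced-4 did not differ from isp-1 past the threshold (0.55, adjusted p = 0.0971). The replication licensing factor cdc-6 rose by 0.95, the ribonucleotide reductase subunit rnr-2 by 0.94, the cyclin cyb-3 by 0.88 and the kinetochore protein knl-1 by 0.67. Genes of germ granules and meiosis were more mixed. Of 35 such genes 16 rose and 5 fell (median 0.30), with differences from -0.95 to 0.89, and after loess 11 rose and 6 fell. Among those with the smallest p were the Piwi protein prg-1 at 0.74, htp-2 of the chromosome axis at 0.71 and him-17 at 0.67. Of the 6 germline markers 2 rose and 2 fell. Against isp-1, 15 oocyte genes, 20 replication genes and 11 germ granule and meiosis genes were higher in isp-1 ced-4 and none was lower, and against ced-4 29, 23 and 16 were higher and 0, 0 and 5 lower. The fit of the compared groups alone called fewer of the replication genes (15 higher) and of the germ granule genes (8 higher, 2 lower).

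**Figure D2:**
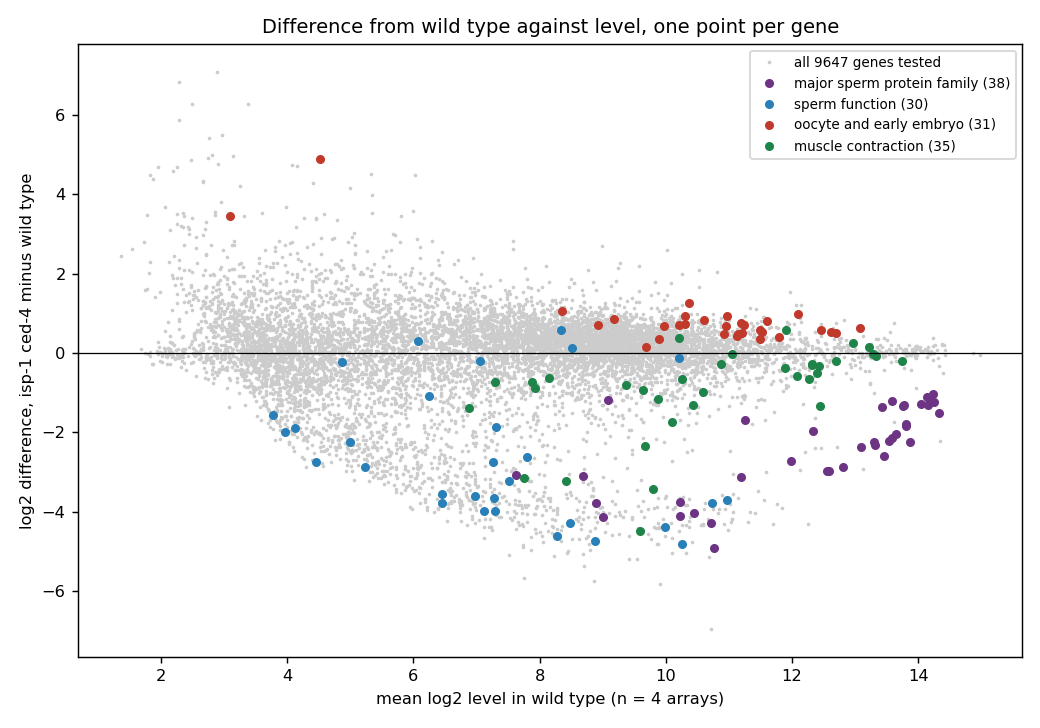
Log2 difference of isp-1 ced-4 minus wild type on the vertical axis against the mean log2 level in wild type on the horizontal axis, with a grey point for each of the 9647 genes tested and 4 lists in colour. All 38 major sperm protein genes lie below 0, down to -4.92, the sperm function genes reach 0.57 at their highest, and the oocyte genes lie between 0.16 and 4.88.

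In several metabolic and proteasome lists that did not fall as a whole, single members fell a long way. cyc-2.2, a cytochrome c gene, stood at 9.50, 6.56 and 5.87 in isp-1 ced-4, against 10.62, 10.85, 10.93 and 11.15 in wild type (difference -3.58, SE 0.54, adjusted p = 3.5e-05). acdh-8, an acyl-CoA dehydrogenase, stood at 8.10, 4.95 and 4.38 in isp-1 ced-4, against 9.51, 9.93, 10.38 and 10.49 in wild type (difference -4.27, SE 0.56, adjusted p = 8.07e-06). In both, replicate 1 was again the highest mutant array and below every wild type array. The proteasome subunit rpn-6.2 fell by 1.81, the S-adenosylmethionine synthetase sams-5 by 3.48, the phosphofructokinase pfk-1.2 by 2.34 and the phosphoenolpyruvate carboxykinase pck-3 by 3.04. In all 6 genes replicate 1 was the highest mutant array, as in 73.6% of all genes that fell.

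Muscle transcripts fell, and most strongly those of the pharynx. Of 35 genes of muscle contraction 25 fell and 1 rose, with a median of -0.65, and after loess 27 fell and 1 rose. The list averaged 9.86, 9.78 and 9.72 in isp-1 ced-4, against 10.31, 10.74 and 10.81 on wild type replicates 1 to 3 and more on replicate 4. The groups did not overlap, and wild type replicate 1 was the wild type array nearest to the mutant. Against isp-1 24 of the 35 were lower and 2 higher, and against ced-4 18 were lower and 2 higher, while in isp-1 3 had fallen from wild type and in ced-4 5.

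Pharyngeal muscle pumps food, and its filaments use their own myosins and troponins. tnt-4, a troponin T, stood at 4.90, 5.09 and 5.29 in isp-1 ced-4, against 6.92, 10.09, 10.64 and 10.70 in wild type, a fall of 4.49 (SE 0.63, adjusted p = 1.62e-05). The troponin C gene tnc-2 stood at 5.39, 4.97 and 5.21 in isp-1 ced-4, against 6.83, 8.86, 9.03 and 8.94 in wild type, a fall of 3.22 (SE 0.40, adjusted p = 5.31e-06). The troponin I gene tni-4 fell by 2.34, and the pharyngeal myosin myo-1, a tissue marker that was picked for the text after its values were seen, by 3.42. Wild type replicate 1 was the lowest wild type array in all 4, yet every isp-1 ced-4 array lay below it. Of the 5 pharynx markers 4 fell, and the fifth, the transcription factor pha-4, rose. The mean of the 5 markers was 5.46 to 5.67 in isp-1 ced-4 and 6.48 to 8.40 in wild type. pgp-14, a P-glycoprotein transporter of the pharynx, fell by 5.08, with arrays at 2.31 to 2.63 in isp-1 ced-4, against 5.49 to 8.24 in wild type.

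Falls in body wall muscle were smaller. Of its 5 tested markers 4 fell and 0 rose. The mean of all 6 markers on the array, with the untested hlh-1, was 9.22 to 9.24 in isp-1 ced-4 and 9.55 to 9.85 in wild type. mup-2, a troponin T, stood at 11.36, 11.03 and 10.95 in isp-1 ced-4, against a mean of 12.44 ± 0.12 in wild type (SD, n = 4; difference -1.33, SE 0.12, adjusted p = 2.48e-07). The troponin genes tni-1 and tnt-3 fell by 1.74 and 1.38. pqn-94 and pqn-31, of the genes with prion-like glutamine- and asparagine-rich domains, fell by 3.62 and 3.13 and like the pharyngeal genes were lowest among the wild type arrays on replicate 1, at 8.31 and 7.06.

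**Figure D3:**
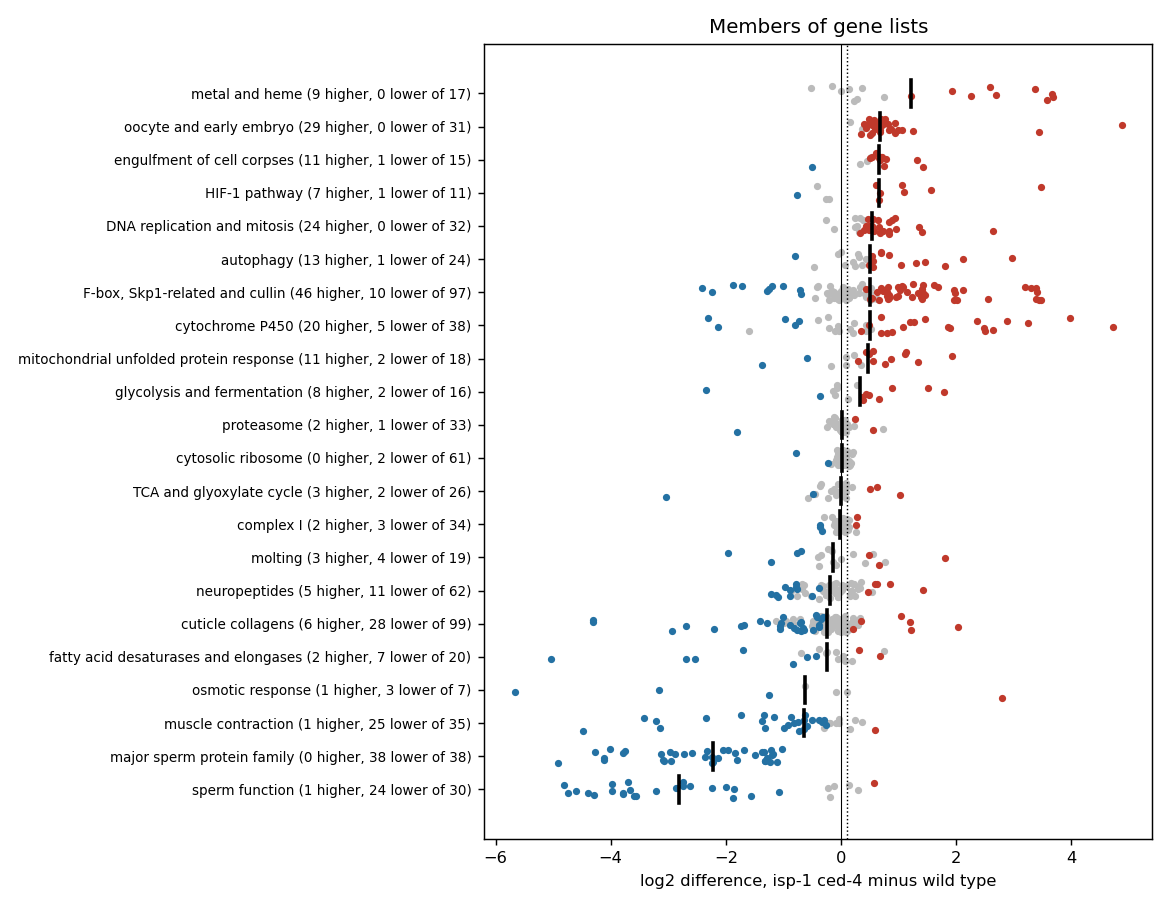
Log2 differences of isp-1 ced-4 minus wild type for every tested member of 22 gene lists, in 22 strips. Red points rose, blue points fell, grey points were not called, black bars are medians and the dotted line is the median of all genes, 0.11. Sperm, major sperm protein and muscle lists lie to the left and the metal and heme list, at a median of 1.21, furthest to the right.

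The mitochondrial unfolded protein response rose in part. Of 18 tested genes 11 rose and 2 fell, with a median of 0.46, and after loess 9 rose and 3 fell. hsp-6, the mitochondrial Hsp70, stood at 11.51, 11.87 and 11.89 in isp-1 ced-4, against 11.17, 11.10, 10.47 and 10.79 in wild type (difference 0.87, SE 0.15, adjusted p = 0.00016). hsp-60, its partner chaperonin, went the other way, at 9.32, 8.89 and 8.70 in isp-1 ced-4, against 10.25, 10.56, 9.91 and 10.70 in wild type (difference -1.38, SE 0.22, adjusted p = 6e-05). Neither gene overlapped between the groups. hsp-6 was also higher than in isp-1 (0.44, adjusted p = 0.0478) and hsp-60 was lower than in isp-1 (-1.43, adjusted p = 0.000453), where hsp-60 had not differed from wild type past the threshold (0.05, adjusted p = 0.889).

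The regulator atfs-1 stood at 7.76, 7.88 and 7.78 in isp-1 ced-4, against 6.01, 6.98, 6.84 and 6.88 in wild type (difference 1.13, SE 0.25, adjusted p = 0.00102). timm-17B.2, of the import channel of the inner membrane, rose by 1.92 and the inner membrane protease ymel-1 by 1.33. None of these 3 differed from isp-1 past the threshold, at -0.06 (adjusted p = 0.887), 0.34 (0.196) and 0.31 (0.39). Over the whole list 2 genes were higher and 1 lower in isp-1 ced-4 than in isp-1, against 13 higher and 2 lower than in ced-4.

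Superoxide and thiol defence changed through a few genes. Of 19 tested genes 8 rose (42.1%) and 2 fell (10.5%), with a median of 0.22, where 29.3% of all genes rose and 22.5% fell. After loess 7 rose and 3 fell, with a median of 0.06. Differences ran from -4.28 to 3.53, and both falls were at least 2-fold. The genes described next all rose. sod-3, the inducible mitochondrial manganese superoxide dismutase, stood at 6.74, 6.84 and 7.79 in isp-1 ced-4, against 3.98, 3.40, 3.54 and 3.48 in wild type (difference 3.53, SE 0.29, adjusted p = 1.43e-07). It was lower than in isp-1, by -1.06 (adjusted p = 0.0131). trxr-1, the thioredoxin reductase that carries selenocysteine, rose by 2.12 and was 1.08 above isp-1 (adjusted p = 0.00181). The mitochondrial thioredoxin reductase trxr-2 and thioredoxin trx-2 rose by 1.53 and 0.65 and did not differ from isp-1 past the threshold (-0.01, adjusted p = 0.981, and 0.08, adjusted p = 0.546).

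skn-1, the Nrf-family factor that controls thiol defence, stood at 10.22, 10.62 and 10.61 in isp-1 ced-4, against a mean of 8.90 ± 0.31 in wild type (SD, n = 4; difference 1.59, SE 0.18, adjusted p = 2.18e-06). It was 1.29 above isp-1 (adjusted p = 0.00023) and had not changed past the threshold in isp-1 itself (0.30, adjusted p = 0.248). skn-1 message is also maternally loaded into oocytes, and here it moved beside the oocyte list described above. The part of the oocyte change in it was not tested. gcs-1, the glutamate-cysteine ligase that SKN-1 controls, stood at 9.70, 10.19 and 9.88 in isp-1 ced-4, against 9.85, 9.07, 8.90 and 8.75 in wild type. Its groups overlapped on wild type replicate 1, and it rose by 0.78 (SE 0.23, adjusted p = 0.00891).

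HIF-1 associated genes rose less than in isp-1. Of 11 tested genes 7 rose and 1 fell (median 0.65), and against isp-1 0 were higher and 6 lower. nhr-57, a nuclear receptor gene that HIF-1 induces, stood at 4.97, 4.95 and 4.95 in isp-1 ced-4, against 4.34, 3.87, 3.95 and 3.47 in wild type (difference 1.05, SE 0.27, adjusted p = 0.00375). In isp-1 it averaged 6.40, and isp-1 ced-4 was lower by -1.44 (adjusted p = 0.00141). fmo-2, a flavin monooxygenase, was uneven over the mutant arrays, at 3.31, 4.91 and 7.54 in isp-1 ced-4, against 2.22, 1.52, 1.81 and 1.56 in wild type (difference 3.48, SE 0.72, adjusted p = 0.000674). The negative regulators vhl-1 and rhy-1 rose by 0.67 and 1.56. rhy-1 at 6.34 on wild type replicate 1 was close to the isp-1 ced-4 arrays, at 6.36 to 6.60, whereas the other wild type arrays lay at 4.30 to 4.52.

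Metal and heme genes had the highest median of the lists. Of 17 tested genes 9 rose and 0 fell, with a median of 1.21, and the list averaged 8.74, 8.93 and 8.77 in isp-1 ced-4, against 7.41, 7.27, 7.13 and 7.32 in wild type. cdr-2, of the cadmium-responsive glutathione transferase relatives, stood at 11.20, 12.02 and 11.81 in isp-1 ced-4, against 8.05, 9.15, 9.60 and 9.13 in wild type (difference 2.69, SE 0.29, adjusted p = 1.23e-06). The heme transporter hrg-1 stood at 9.96, 9.69 and 9.04 in isp-1 ced-4, against 6.81, 6.59, 4.35 and 6.20 in wild type (difference 3.58, SE 0.56, adjusted p = 4.71e-05). Neither overlapped between the groups. hrg-9 rose by 3.67, the heme-signalling protease hrg-7 by 2.59, cdr-4 by 2.26 and the metal transporter smf-1 by 1.21. The isp-1 mutant had 8 of the 17 higher than wild type, and isp-1 ced-4 was above isp-1 in 2 and below it in 0.

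Few genes of the large complexes of energy metabolism were called. Of 34 tested complex I genes 2 rose and 3 fell, of 35 genes of complexes II to V and cytochrome c 5 rose and 1 fell, and of 26 genes of the tricarboxylic acid and glyoxylate cycles 3 rose and 2 fell. After loess these counts were 0 and 5, 2 and 3, and 3 and 7. Differences among the complex I genes ran from -0.36 to 0.28. Of 61 cytosolic ribosome genes 0 rose and 2 fell, with rpl-11.2 lower by -0.78 (adjusted p = 4.53e-05). The mitochondrial ribosome had 4 of 54 higher and 10 lower (median -0.08), which became 0 higher and 20 lower after loess. Proteasome genes likewise had 2 of 33 higher and 1 lower, and 0 higher and 8 lower after loess.

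Glycolysis and fermentation rose in 8 of 16 genes and fell in 2 (median 0.32). aldo-1, a fructose-bisphosphate aldolase, stood at 11.26, 11.68 and 11.89 in isp-1 ced-4, against 9.03, 9.92, 10.06 and 10.27 in wild type (difference 1.79, SE 0.23, adjusted p = 5.95e-06). Lactate dehydrogenase, ldh-1, stood at 11.07, 11.41 and 11.65 in isp-1 ced-4, against 9.64, 10.11, 9.56 and 10.15 in wild type (difference 1.51, SE 0.20, adjusted p = 8.45e-06). Neither differed from isp-1 past the threshold, with differences of 0.05 (adjusted p = 0.902) and 0.14 (adjusted p = 0.65). The gluconeogenic pck-1 rose by 1.03 but was below isp-1 (adjusted p = 0.000189).

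Fat and osmotic genes held some of the deepest falls outside the germline and pharynx. Of 20 desaturase and elongase genes 7 fell and 2 rose, with a median of -0.25. fat-7, a stearoyl-CoA desaturase, stood at 5.01, 4.95 and 5.22 in isp-1 ced-4, against 10.43, 10.66, 8.34 and 10.94 in wild type (difference -5.03, SE 0.51, adjusted p = 8.07e-07). It was below isp-1 by -2.29 (adjusted p = 0.00426), in which it had already fallen by 2.75 from wild type (adjusted p = 0.0012). The delta-6 desaturase fat-3 fell by 1.70 and fat-6 by 0.59. Of 40 genes of fatty acid oxidation 11 fell (27.5%) and 7 rose (17.5%), and the thiolase kat-1 was lower by -0.74. The vitellogenin list had 2 of 6 higher (33.3%) and 0 lower. Among all genes 29.3% rose and 22.5% fell.

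hmit-1.1, which imports myo-inositol and belongs to the osmotic response, stood at 2.51, 1.59 and 2.14 in isp-1 ced-4, against 7.20, 8.07, 7.30 and 8.42 in wild type (difference -5.67, SE 0.33, adjusted p = 2.21e-09). gpdh-1, the osmotically induced glycerol-3-phosphate dehydrogenase, stood at 2.80, 2.75 and 3.09 in isp-1 ced-4, against 5.61, 6.73, 4.39 and 7.42 in wild type (difference -3.16, SE 0.61, adjusted p = 0.000341). Its relative gpdh-2, picked after its values were seen, differed by -0.09 (adjusted p = 0.661). hmit-1.1 and gpdh-1 did not differ from isp-1 past the threshold, with differences of 0.00 (adjusted p = 0.997) and -0.03 (adjusted p = 0.975), and rips-1 rose by 2.79. Of the 7 osmotic response genes tested 1 rose and 3 fell.

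**Figure D4:**
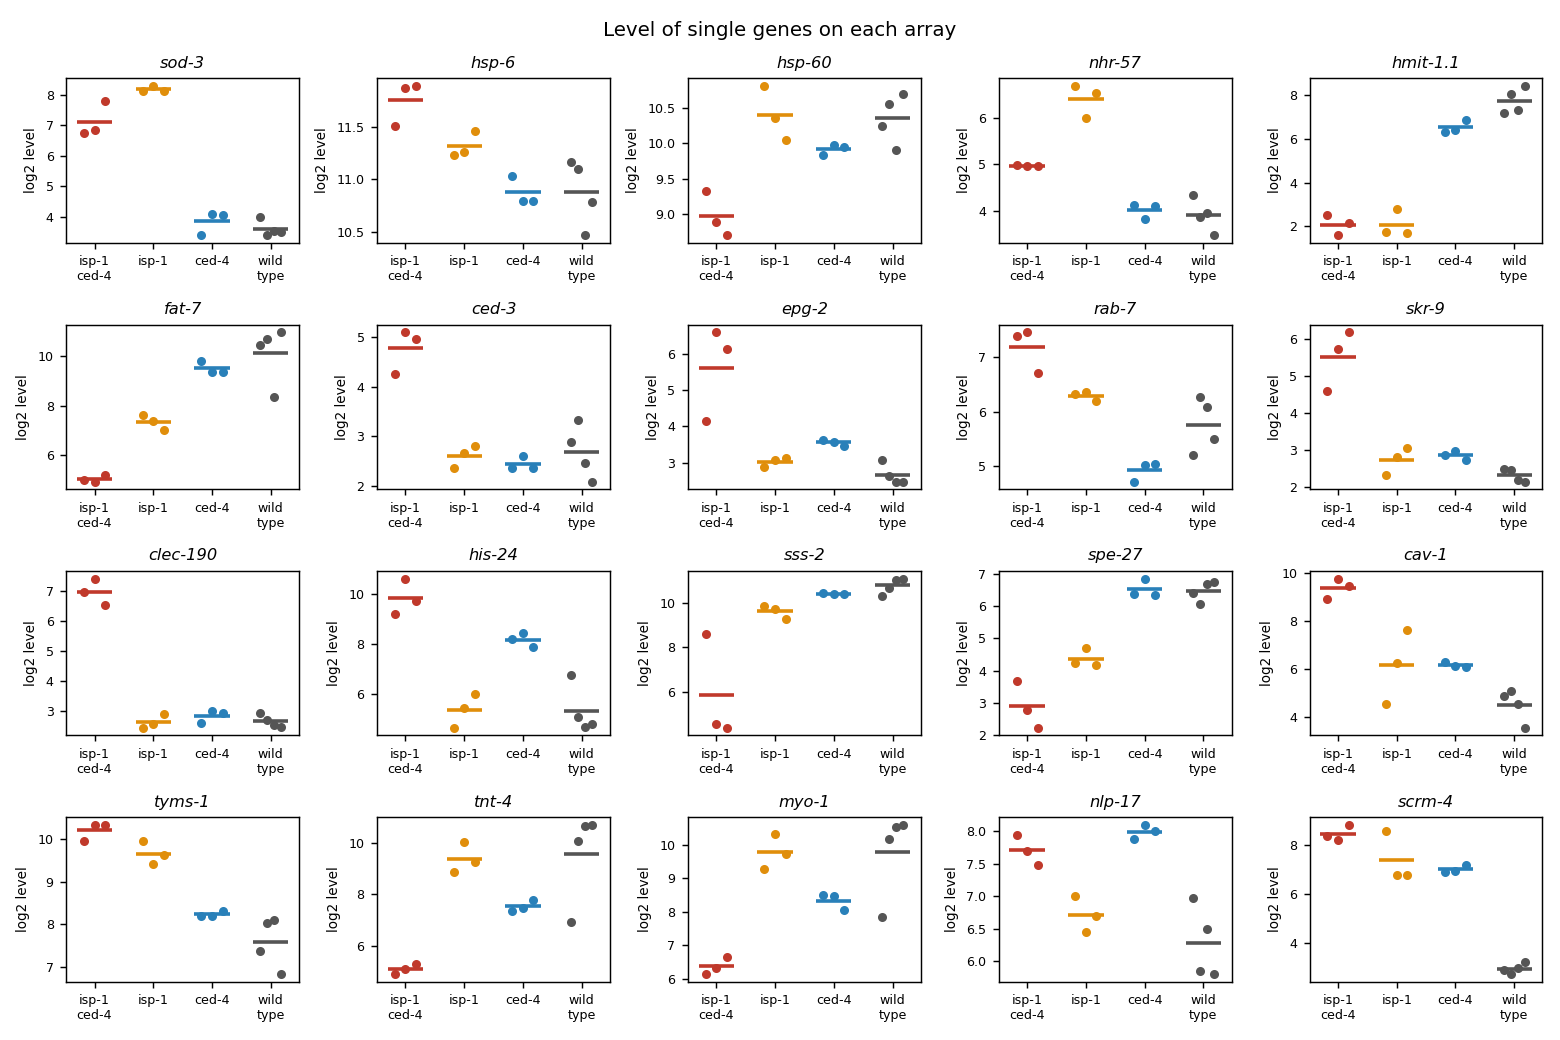
Log2 level of 20 genes on each array of isp-1 ced-4, isp-1, ced-4 and wild type, with points for arrays and bars for group means. hmit-1.1 lies near 2 in isp-1 ced-4 and in isp-1, ced-3, epg-2, skr-9 and clec-190 are high in isp-1 ced-4 alone of the 4 groups, and myo-1 and tnt-4 show the low wild type replicate 1.

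Engulfment and autophagy genes mostly rose, and the apoptosis list did not stand apart from all genes. Of 11 tested genes of intrinsic apoptosis 4 rose and 2 fell, ced-4 itself and nuc-1, with a median of 0.11, that of all genes, and after loess 3 rose and 4 fell. ced-3, the caspase that CED-4 activates, stood at 4.25, 5.09 and 4.96 in isp-1 ced-4, against 2.88, 3.33, 2.47 and 2.09 in wild type (difference 2.08, SE 0.28, adjusted p = 1.07e-05). It averaged 2.61 in isp-1 and 2.45 in ced-4, and isp-1 ced-4 was above these by 2.16 (adjusted p = 0.000139) and 2.32 (adjusted p = 8.35e-06). ced-8, which exposes phosphatidylserine on dying cells, rose by 1.14, and the p53 homologue cep-1 by 0.63. The DNase II gene nuc-1 fell by 1.34. ced-9, the Bcl-2 homologue that holds CED-4, was picked after its values were seen, and it differed by 0.37 (adjusted p = 0.139).

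Of 15 genes of corpse engulfment 11 rose and 1 fell, with a median of 0.65, and the list averaged 7.93, 8.32 and 8.12 in isp-1 ced-4, against 7.57, 7.60, 7.47 and 7.34 in wild type. rab-7, a GTPase of phagosome maturation, stood at 7.39, 7.45 and 6.71 in isp-1 ced-4, against 5.20, 6.27, 6.08 and 5.50 in wild type (difference 1.42, SE 0.24, adjusted p = 8.63e-05). The dynamin dyn-1 rose by 1.32, the sorting nexin lst-4 by 0.78, the lipid phosphatase mtm-1 by 0.60 and the exchange factor unc-73 by 0.65. Against isp-1 and against ced-4 11 of the 15 were higher and 0 lower, and in those single mutants 0 had risen over wild type and 1 had fallen.

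Of 24 autophagy genes 13 rose and 1 fell (median 0.51), and 10 rose and 1 fell after loess. epg-2, an adaptor that brings germline granules to the autophagosome, stood at 4.14, 6.60 and 6.14 in isp-1 ced-4, against 3.07, 2.63, 2.48 and 2.48 in wild type (difference 2.96, SE 0.38, adjusted p = 7.07e-06). atg-10, of the conjugation system, stood at 4.93, 5.55 and 5.34 in isp-1 ced-4, against 3.43, 3.49, 3.23 and 2.50 in wild type (difference 2.11, SE 0.25, adjusted p = 3.76e-06). The groups did not overlap in either. The membrane protein gene atg-9 rose by 1.81, atg-4.2 by 1.3 and atg-16.1 by 1.04. Against isp-1 9 of the 24 were higher and 0 lower, and in isp-1 2 had risen over wild type. Replicate 1 was the lowest mutant array in 12 of the 13 autophagy genes that rose and in 9 of the 11 engulfment genes, against 75.0% of all genes that rose. Whether the oocyte change has a part in these groups was not tested.

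Among the tested substrate receptors and adaptors of the ubiquitin system, more rose than fell. Of 340 F-box, Skp1-related and cullin genes on the array only 97 passed the filter. Of these 46 rose and 10 fell, with a median of 0.51, and 45 rose and 13 fell after loess. A gene below the filter level in wild type was tested only where other arrays reached it, which favours rises. fbxa-153 and skr-9, given by array next, lay below that level, 3.683, on every wild type array. fbxa-153 stood at 5.68, 6.29 and 7.02 in isp-1 ced-4, against 2.83, 3.04, 3.23 and 2.31 in wild type (difference 3.48, SE 0.28, adjusted p = 1.43e-07). The Skp1-related skr-9 stood at 4.60, 5.73 and 6.19 in isp-1 ced-4, against 2.47, 2.45, 2.18 and 2.14 in wild type (difference 3.20, SE 0.27, adjusted p = 1.81e-07). skr-13 rose by 3.39, fbxa-107 by 1.96 and fbxc-43 by 1.43. Against isp-1 29 of the 97 were higher and 2 lower, where isp-1 itself had 13 higher and 12 lower than wild type.

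Nuclear hormone receptors rose at a share near that of all genes and fell less often. Of 259 on the array only 95 passed the filter. Of these 32 rose (33.7%) and 6 fell (6.32%), with a median of 0.33, where 29.3% of all genes rose and 22.5% fell. Rises of at least 2-fold came in 21 of the 95, against 8.88% of all genes. Among the rises were nhr-181 at 1.97, sex-1 at 2.06, nhr-161 at 1.58, nhr-65 at 1.51 and nhr-132 at 1.36. Of 9 tested insulin pathway genes 5 rose and 1 fell, and 3 rose after loess. pdk-1, the kinase between phosphoinositide signals and AKT, stood at 7.03, 8.34 and 7.23 in isp-1 ced-4, against 6.25, 6.12, 6.01 and 5.15 in wild type (difference 1.65, SE 0.29, adjusted p = 0.000138). The phosphatase daf-18 rose by 0.97 and the lipid kinase age-1 by 0.52. The FOXO gene daf-16 rose by 0.56 (adjusted p = 0.0244) and akt-1, picked after its values were seen, by 0.50 (adjusted p = 0.0347), calls that ended after loess at 0.35 and 0.33.

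Among the detoxification enzymes tested, the cytochrome P450 genes rose most often. Of 73 cytochrome P450 genes on the array only 38 passed the filter, which favours rises among genes low in wild type. Of these 38 genes 20 rose (52.6%) and 5 fell (13.2%), with a median of 0.51. Of 46 UDP-glucuronosyltransferases 16 rose (34.8%) and 12 fell (26.1%), with a median of 0.37. Of 23 glutathione S-transferases 8 rose (34.8%) and 2 fell (8.70%), with a median of 0.04. Among all genes 29.3% rose and 22.5% fell. After loess the P450 genes had 18 higher and 5 lower, the UDP-glucuronosyltransferases 14 higher and 14 lower, and the glutathione S-transferases 7 higher and 6 lower, with a median of -0.13. cyp-14A1 stood at 5.66, 5.74 and 5.05 in isp-1 ced-4, against 1.69, 2.37, 2.29 and 2.64 in wild type (difference 3.24, SE 0.30, adjusted p = 3.39e-07). Every wild type array was below the filter level, 3.683, for this gene. cyp-13A5 and cyp-33C8 rose by 4.72 and 3.97, ugt-62 by 2.00 and gst-14 by 2.45, while ugt-26 and ugt-29 fell by 2.72 and 2.67. gst-28 and gst-41 fell by 1.17 and 1.77, and both were below isp-1, by -1.64 (adjusted p = 5.07e-05) and -3.01 (adjusted p = 0.000186). Against isp-1 the glutathione S-transferases had 2 higher and 8 lower.

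Immune-type genes went both ways. Of 63 C-type lectins 18 rose (28.6%) and 15 fell (23.8%), close to the shares of all genes, 29.3% and 22.5%. clec-190 stood at 6.95, 7.41 and 6.53 in isp-1 ced-4, against 2.92, 2.72, 2.55 and 2.47 in wild type (difference 4.30, SE 0.19, adjusted p = 7.07e-11). It was 4.33 above isp-1 and 4.11 above ced-4 (adjusted p = 3.66e-10 and 2.87e-11). clec-266 rose by 4.68, whereas clec-52, up by 4.73, ranged from 6.73 to 10.73 in isp-1 ced-4 and averaged 10.57 in ced-4. The lysozymes lys-2 and lys-1 rose by 2.09 and 1.1 and the saposin spp-4 fell by 2.13. Among infection response genes irg-1 and irg-3 fell by 3.33 and 2.32, and pmk-1, the p38 kinase, rose by 0.94. Of 9 tested genes for antimicrobial peptides of the epidermis 3 rose and 2 fell, with a median of -0.35. The caenacin genes cnc-3 and cnc-2 rose by 3.53 and 1.96, whereas nlp-27 and cnc-8 fell by 0.78 and 0.59.

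Molting and hedgehog-related genes lay near wild type in isp-1 ced-4 and well below ced-4, while cuticle collagens were shifted downward against both. Of 99 cuticle collagens 6 rose (6.06%) and 28 fell (28.3%) against wild type, where 29.3% of all genes rose and 22.5% fell. The collagen median was -0.24, with 17 lower in the fit of the 2 compared groups alone. Against ced-4 14 collagens were higher and 62 lower (median -0.78). Of 19 molting genes 3 rose and 4 fell against wild type and 13 were lower against ced-4, and of 34 hedgehog-related genes 3 rose and 6 fell against wild type and 27 were lower against ced-4. In the ced-4 single mutant itself 12 of 19 molting genes, 25 of 34 hedgehog-related genes and 18 of 23 body shape collagens rose over wild type. acn-1, an ACE-like protein needed for molting, stood at 2.98, 2.94 and 3.27 in isp-1 ced-4, against 7.92 on average in ced-4 (difference -4.86, adjusted p = 8.29e-09) and 4.38, 4.18, 3.84 and 4.68 in wild type (difference -1.21, adjusted p = 0.00664). Among genes that fell against wild type, the deepest differences from ced-4 were those of Y47D7A.13 (-8.47), F41F3.3 (-7.77), abu-15 (-7.69), Y47D7A.15 (-7.62) and abu-8 (-7.28). All of them were at least 5.29 higher in ced-4 than in wild type. Among the collagens col-101, col-143 and col-95 rose against wild type by 2.03, 1.21 and 1.2, and col-149 and col-39 each fell by 4.30.

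**Figure D5:**
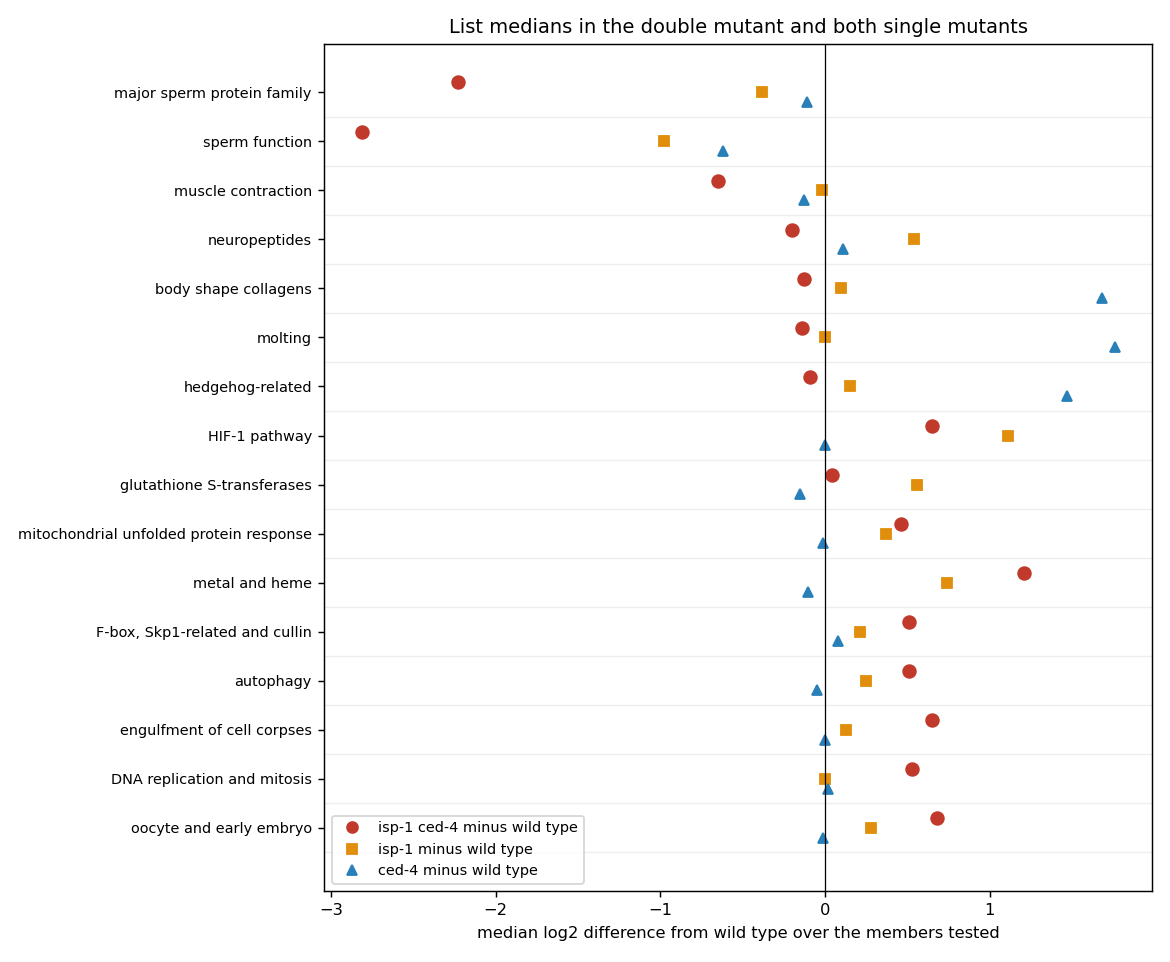
Median log2 difference from wild type over the tested members of 16 gene lists in isp-1 ced-4, isp-1 and ced-4, all set against the same 4 wild type arrays. Body shape collagens, molting and hedgehog-related genes are high in ced-4, neuropeptides in isp-1, at 0.54, and the sperm lists are lowest in isp-1 ced-4, at -2.81 and -2.23.

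Neuropeptide genes stayed near wild type in isp-1 ced-4 and differed from isp-1. Of 62 tested genes 5 rose and 11 fell against wild type (median -0.20), and 2 rose and 4 fell in the fit of the 2 compared groups alone. Against isp-1 3 were higher and 35 lower (median -0.73), and in isp-1 28 of the 62 had risen over wild type and 0 had fallen. nlp-17 stood at 7.94, 7.70 and 7.48 in isp-1 ced-4, against 6.98, 5.85, 6.49 and 5.80 in wild type (difference 1.43, SE 0.23, adjusted p = 5.34e-05). flp-10 fell by 1.21, nlp-26 by 1.13 and flp-13 by 0.89. Of 14 insulin-like peptide genes 1 rose and 4 fell against wild type, and 9 were lower against isp-1. Of the 7 tested neuronal markers 1 rose and 1 fell. The mean of all 8 markers on the array, with the untested unc-31, was 6.59 to 6.65 in isp-1 ced-4 and 6.15 to 6.65 in wild type.

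Most of the single genes with the largest rises had low values in wild type. Y49G5A.1 stood at 9.31, 9.65 and 8.37 in isp-1 ced-4, against 2.31, 2.13, 1.92 and 2.79 in wild type (difference 6.82, SE 0.30, adjusted p = 7.07e-11). ZK177.9 rose by 7.08, and scrm-4, of the phospholipid scramblases, by 5.48. The beta-tubulin gene tbb-6 rose by 4.95, the chitinase cht-1 by 4.75, the linker histone his-24 by 4.50, and clc-11, of the claudin-like genes, by 4.37. Of these 7 genes all but his-24, at 5.33, averaged below the median of the table, 3.683, in wild type.

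Only genes that rose against wild type were ranked by their difference from isp-1. In those where isp-1 ced-4 stood furthest above isp-1, isp-1 did not differ from wild type past the threshold. K03D3.2 stood at 6.16, 7.30 and 7.34 in isp-1 ced-4, against 2.96 on average in isp-1 (difference 3.98, adjusted p = 2.99e-06) and 2.18 to 2.32 in wild type. his-24, cht-1 and clec-266 were 4.49, 4.33 and 4.19 above isp-1 (adjusted p = 1.38e-05, 2.16e-05 and 4.75e-05), with differences of 0.01, 0.42 and 0.50 between isp-1 and wild type. C38D9.2 was the reverse case, 5.87 above wild type in isp-1 ced-4 and -2.42 relative to isp-1 (adjusted p = 0.000704).

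The largest fall was that of F42A10.7, at 3.58, 3.74 and 3.98 in isp-1 ced-4, against 10.02, 9.90, 11.79 and 11.15 in wild type (difference -6.95, SE 0.43, adjusted p = 6.53e-09). It had also fallen in isp-1, by 3.54, and isp-1 ced-4 was lower still (-3.40, adjusted p = 0.00013). Other deep falls were those of msrp-1 (-5.83), T27A3.5 (-5.75), the claudin-like clc-10 (-5.36), msrp-6 (-5.15) and catp-4, of the cation-transporting ATPases (-5.07). In these 5 genes isp-1 ced-4 replicate 1 was the highest mutant array, the order of 73.6% of all genes that fell. F42A10.7 did not share that order, with replicate 1 the lowest of its 3 mutant arrays.

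Abundant transcripts changed as well. The glucuronosyltransferase gene ugt-62 stood at 11.83, 12.59 and 12.31 in isp-1 ced-4, against 10.49, 10.57, 9.78 and 10.16 in wild type (difference 2.00, SE 0.22, adjusted p = 1.64e-06). The long non-coding RNA tts-1 stood at 11.64, 11.92 and 11.77 in isp-1 ced-4, against 8.52, 8.64, 12.11 and 9.04 in wild type (difference 2.2, SE 0.56, adjusted p = 0.00359). Here wild type replicate 3 lay above every mutant array, so the groups overlapped, and the call ended in the fit of the 2 compared groups alone. nspd-1, nspd-2 and gipc-2 were the abundant transcripts with falls of 2.96, 2.97 and 3.91, all with replicate 1 the highest mutant array.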

How the data were processed

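The deposited table holds log2 expression values from Affymetrix arrays. GCRMA is the method that the submitters' processing notes name. The log base was read from the range of the authors' values, 0.926 to 15.25. How GCRMA was set, and which arrays it took together, is not stated. Arrays have no read depth, and their number limits the precision.

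Of 22625 probe sets 77 controls were left out, and 12639 of the other 22548 reached the table's median, 3.683, on at least 3 arrays and were tested. A gene below that level in wild type was tested only where other arrays reached it, which favours rises among such genes. Symbols came from the platform annotation, updated through entrez ID for 20701 of 20766 probe sets with 1 symbol. The probe set with the highest mean stood for a gene, giving 9647 tested genes of 17118. Of these 3601 were read by probe sets that may bind several transcripts, among those described F41F3.3, abu-15, abu-8, age-1, akt-1, aldo-1, atfs-1, atg-16.1, atg-4.2, cav-1, cdc-6, cdr-4, cht-1, clec-190, clec-266, cnc-2, cnc-3, col-101, col-95, daf-16, dyn-1, fat-6, gipc-2, gpdh-2, gst-41, him-17, hrg-1, hsp-60, isp-1, knl-1, lys-2, mex-1, mex-5, msrp-6, mup-2, myo-1, nhr-65, nspd-1, nspd-2, pck-1, pdk-1, pha-4, prg-1, rab-7, rnr-2, rpl-11.2, sams-5, sex-1, skn-1, skr-13, skr-9, smf-1, spe-26, tni-1, tnt-3, trx-2, trxr-1, ugt-29 and ymel-1.

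limma 3.58.1 in R 4.3.3 (lmFit, eBayes) fitted the 7 groups together without a block, with two-sided tests and Benjamini-Hochberg adjustment within each comparison. Worms with a nuo-6 mutation were in this fit but are not described here. Each SE and p thus rests on the spread within all 7 groups. Median SDs over arrays were 0.298 in wild type, 0.192 in isp-1 ced-4 and 0.124 to 0.242 in the other groups. Fits of the compared groups alone called 4360 probe sets against wild type (6365 in the main fit), 2088 against isp-1 (4193) and 7568 against ced-4 (6594). The procedure was tested on simulated data. Alternatives were no filter, a stricter filter, cyclic loess, centring on medians, a block for replicate number, trend and robust options, a fit of the compared groups alone, and leaving out arrays. Members and lists were chosen with earlier results of these data known. The genes named are the mutated genes, the largest changes against wild type and each single mutant, the members of each list with the smallest p, and the abundant genes that changed most. Changes against a single mutant were ranked only among genes called in the same direction against wild type.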

Additional observations from a re-analysis of the deposited data

Results flagged for a closer look

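Of 253 sets of 4 wild type values examined, 21 held an array far from the other 3, where chance flags about 1 in 20 groups. Groups of 3 arrays were not examined.

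Wild type replicate 1 was the array that stood apart in 14 of them. In muscle of the pharynx tnt-4 was at 6.92 (others 10.09 to 10.70), tnc-2 at 6.83 (8.86 to 9.03), tni-4 at 8.42 (9.95 to 10.19) and myo-1 at 7.84 (10.19 to 10.60). pgp-14 was at 5.49 (8.17 to 8.24), atfs-1 at 6.01 (6.84 to 6.98), timm-17B.2 at 6.52 (6.81 to 6.86) and vit-6 at 14.15 (14.26 to 14.27). Replicate 1 was high in rhy-1 at 6.34 (4.30 to 4.52), hsp-12.3 at 7.34 (5.84 to 6.08), daf-16 at 8.67 (8.10 to 8.14), col-95 at 12.41 (11.91 to 11.98), dpy-14 at 3.39 (2.71 to 2.80) and clec-17 at 2.77 (2.35 to 2.40).

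Replicate 2 was low in atg-4.2 at 3.78 (4.06 to 4.10). Replicate 3 was low in vhl-1 at 3.60 (4.16 to 4.26) and hrg-7 at 8.30 (10.45 to 10.88), and high in tts-1 at 12.11 (8.52 to 9.04) and in the mean level of C-type lectins at 6.74 (6.36 to 6.41). Replicate 4 was low in glh-3 at 6.17 (6.52 to 6.57) and high in hrg-9 at 4.38 (3.82 to 3.90).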

How the results depend on the processing

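In the fit of the compared groups alone, 2387 probe sets were higher against wild type, and against isp-1 2088 were called, 904 higher and 1184 lower. Leaving out 1 array at a time gave 5034 to 6672 calls against wild type (2740 to 3828 higher, 2265 to 2844 lower), 2748 to 4289 against isp-1 (1198 to 2150 higher, 1550 to 2139 lower) and 5324 to 6471 against ced-4 (2972 to 3907 higher, 2288 to 2564 lower). Without isp-1 ced-4 replicate 2 the calls against isp-1 were 2748, and without replicate 3 1343 were higher; the cause was not tested. Same-numbered arrays did not deviate together (correlations of -0.24 to 0.17 against wild type), so the numbers were not taken to pair samples, and a replicate block gave 5343 calls against wild type, 4166 against isp-1 and 6589 against ced-4. Cyclic loess turned the balance of calls against wild type, with 2618 probe sets higher and 3208 lower, against 3693 and 2672 on the deposited values. It also turned the sign of 5 list medians, for which no direction is given: glutathione S-transferases (to -0.13), short-chain dehydrogenases (-0.10), C-type lectins (-0.08), proteasome (-0.13) and the claudin-like, innexin and caveolin genes (-0.05). Against isp-1 2019 probe sets were higher and 2174 lower, which median centring turned to 2170 and 2083. No called difference of a named gene changed sign. Of the values of single genes under the alternatives 2958 kept direction and call, 53 lost the call and 9 gained it, and of the list counts 1284 stayed within 1.5 times and 246 did not. With 3 and 4 arrays, small differences are not resolved, and genes not above the table's median on at least 3 arrays were not tested.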

Other observations

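Of 32 core and linker histone genes 5 rose and 14 fell in isp-1 ced-4 against wild type (median -0.19), and against ced-4 3 were higher and 17 lower. Of 12 cytosolic heat shock genes 4 rose (33.3%) and 2 fell (16.7%), with a median of 0.27, and after cyclic loess 3 rose and 3 fell. Aminoacyl-tRNA synthetases, which charge tRNAs for translation, had 2 of 30 higher and 5 lower, and 0 higher and 15 lower after cyclic loess. Of 14 genes of the methionine cycle and transsulfuration 3 rose and 4 fell, and of 10 heterochronic genes, which time larval development, 3 rose and 0 fell.

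Wild type worms treated with 0.1 mM paraquat (3 arrays), set against the same 4 wild type arrays, had 25 of 30 sperm function genes lower (median -2.64), all 38 major sperm protein genes lower (median -1.59) and 30 of 31 oocyte genes higher (median 0.82). The corresponding counts in isp-1 ced-4 were 24, 38 and 29. Paraquat-treated worms also had 6 of 15 engulfment genes, 12 of 24 autophagy genes and 23 of 32 replication and mitosis genes higher, with 0 lower in each list. Of all 9647 genes tested 2494 were higher and 1567 lower in the paraquat-treated worms. In isp-1 ced-4 11, 13 and 24 of these rose, so rises in the 3 lists were not confined to it. Both comparisons share their wild type arrays, so the values stand side by side with no test between them.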
